A study of Homo sapiens with 6 samples.

Results

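Genes controlled by p53, or controlling it, were followed in MDA-MB-231 cells, a widely used human line of triple-negative breast cancer that is known to carry a mutant p53. The set held 9 genes, chosen by symbol from the 17631 genes measured: MDM2 and MDM4, which restrain p53, and CDKN1A, GADD45A, GADD45B, GDF15, FAS, RRM2B and TP53I3, which p53 can switch on or which respond to DNA damage. The cells had been treated for 24 h with vehicle or with 30 µM PDBAG1, a cell-penetrating peptide derived from the enzyme GPD1, and RNA was sequenced from 3 libraries per group. Nothing in the labels says whether the 3 libraries of a group came from separate cultures, so p values measure the spread between these libraries, which may be technical. The question was whether damage-response genes move with the peptide in a line whose p53 is mutant. The p53 sequence itself is not in these values and was not checked.

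The protein p53 is a transcription factor that is stabilised after DNA damage and other stresses. It binds paired copies of a short DNA motif near its target genes, and among the products are the cell cycle inhibitor p21, DNA repair and death receptor proteins, and its own antagonist MDM2, which closes a feedback loop. Many cancer mutations alter the part of p53 that touches DNA. Several of its targets also respond to other signals, such as the ATF4 stress pathway for GDF15 and inflammatory or growth factor signalling for CDKN1A and GADD45B.

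To show what kind of element lies near these genes, the closest matches to the p53 consensus site were read from the human genome. The site searched was a pair of p53 consensus half-sites with no spacer, 20 bases in all, within 2500 bases on either side of the gene's RefSeq start (GRCh38.p14). The table of starts held 7 of the 9 genes, without GADD45A and RRM2B. Each of the 7 had at least 1 site with 2 mismatches and none had a closer one. Of the 10296 tested genes that could be scanned, 11.4% had a site with 2 or fewer mismatches. The limit of 2 mismatches was set after the closest matches had been seen, and half-sites separated by spacer bases were not searched. The sites are printed below in the direction of the gene, with the 4-base core of each half-site in capitals.
CDKN1A, distal: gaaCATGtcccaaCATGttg
CDKN1A, proximal: gaaGAAGactgggCATGtct
MDM2: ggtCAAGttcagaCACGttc
MDM4: gtgCTTGtttgaaAATGctt
GDF15: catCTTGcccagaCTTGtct
FAS: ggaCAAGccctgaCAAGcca
TP53I3: ataCATCctcagaCATGttt
GADD45B: agaCTTGgttgaaCTTGgtt

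The pair of CDKN1A sites began 2265 bases (chr6:36676449-36676468) and 1383 bases (chr6:36677331-36677350) before the RefSeq start, upstream of the canonical GENCODE v44 transcript. The MDM2 site lay 751 bases after the start in intron 1 (chr12:68808923-68808942), the FAS site 511 bases after it in intron 1 (chr10:88991309-88991328) and the MDM4 site 527 bases after it in intron 1 (chr1:204516933-204516952). The GDF15 site was 850 bases before the start (chr19:18385308-18385327) and the TP53I3 site 1966 bases before it (chr2:24086781-24086800, minus strand). The GADD45B site fell in the 3′ UTR, in exon 4 (chr19:2478021-2478040). A match is a description of the letters and does not show that p53 binds there.

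Values were deposited as TPM, a transcript's share of its library, corrected for transcript length. Levels can therefore be compared between genes, but TPM keeps no sequencing depth. The depth and the counting error behind each value are therefore unknown, and only the spread between the 3 libraries of a group measures precision. Between 12392 and 12611 genes per library reached a TPM of 1. The standard deviation of log2 differences between a pair of libraries ran from 0.142 to 0.175 for libraries of the same group and from 0.278 to 0.296 for libraries of different groups. Of the line's markers, VIM was high at 4270 ± 87.5 TPM with vehicle and 5877 ± 103 with PDBAG1, CD44 at 321 ± 9.24 and 484 ± 19.0, and KRT18 at 518 ± 9.73 and 447 ± 8.37 (SD, n = 3 per group). The first 2 rose and KRT18 fell (limma adjusted p = 1.02e-07, 1.15e-07 and 0.000337), and their part in the results was not tested. With vehicle EPCAM (5.14 ± 1.06 TPM), ESR1 (2.26 ± 0.240) and PGR (0.0267 ± 0.0306) were low (SD, n = 3), and with PDBAG1 they were at 5.27 ± 0.166, 2.61 ± 0.718 and 0.0267 ± 0.0153 TPM. The labels also name breast cancer tissue as the source, but markers of other tissue cells were low beside VIM, CD44 and KRT18. The 2 measured leukocyte markers summed to 7.58 to 9.11 TPM with vehicle and 7.11 to 7.45 with PDBAG1, and the 2 adipocyte markers to under 1 TPM in every library. The 3 endothelial markers summed to 4.11 to 4.40 and 8.42 to 9.60 TPM, nearly all of it PECAM1, with VWF at 0.0367 ± 0.0153 and 0.0667 ± 0.0252 TPM (SD, n = 3 per group). PECAM1 rose from 3.94 ± 0.152 to 8.64 ± 0.680 TPM (SD, n = 3 per group; log2 fold change 0.96, limma adjusted p = 2.21e-06). The part of PECAM1, or of cells expressing it, in the results was not tested.

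All 9 genes passed the expression filter, a TPM of 1 or above in no fewer than 3 libraries, as did 12582 genes in all. The test was limma on log2(TPM + 1), with Benjamini-Hochberg adjustment over all 12582 genes. For each gene limma takes the variance in part from the other genes tested. Its p values, standard errors and intervals therefore do not rest on that gene's own spread alone. A gene is said to have risen or fallen when its adjusted p was under 0.05. By this rule CDKN1A and GDF15 rose with PDBAG1, GADD45A and GADD45B fell, and MDM2, MDM4, FAS, RRM2B and TP53I3 did not pass. The 4 of 9 stand against 37.6% of all genes tested that passed in the same comparison (21.7% higher and 15.9% lower), so the share of the set that changed was close to the background. The split over all genes depended on the scaling: 2736 rose and 2000 fell in TPM as deposited, 2455 rose and 2741 fell after median-of-ratios scaling, and 2404 rose and 2742 fell after quantile normalization. CDKN1A and GDF15 also reached the study's limit of a 1.5-fold change, which 3.34% of all genes did (2.86% higher and 0.477% lower). The median log2 fold change of the 9 genes was 0.07, and that of all genes tested was 0.03. Fold changes on the log2(TPM + 1) scale understate the change of genes at low TPM.

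**Figure D1:**
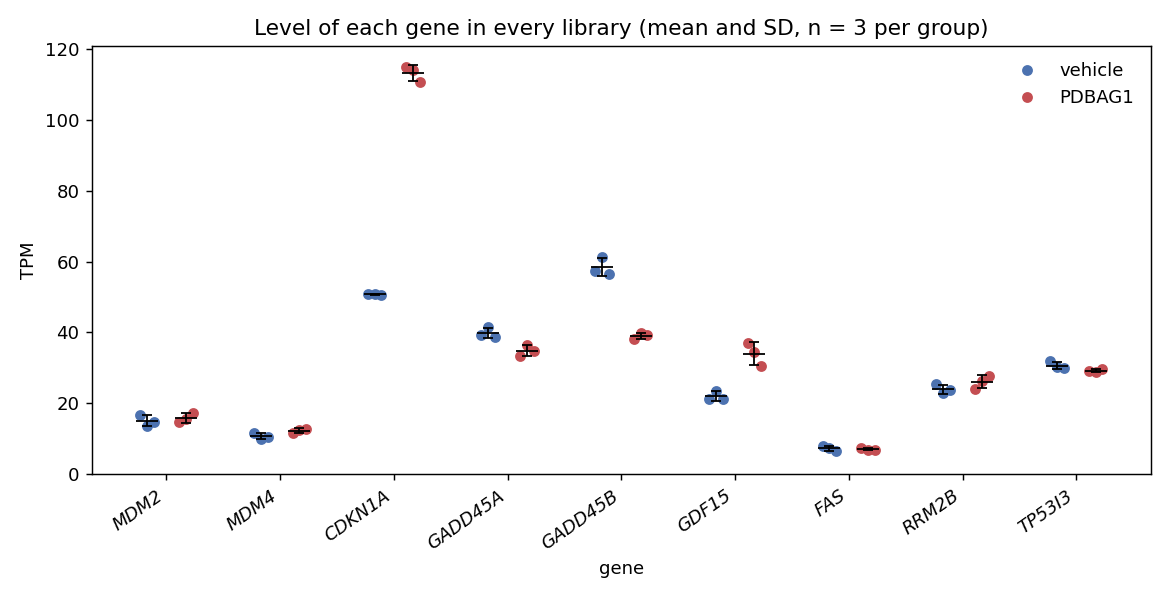
Level of each of the 9 genes in every library, in TPM on a linear axis from 0. Points are the 3 vehicle (blue) and 3 PDBAG1 (red) libraries, the black bars are mean and SD, and CDKN1A moves from about 50.8 to 113 TPM while MDM2, FAS and RRM2B overlap between groups.

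CDKN1A encodes p21, the inhibitor of cyclin-dependent kinases through which p53 holds cells in G1 (chromosome 6, 36676460 to 36687337, GRCh38, GENCODE v44). Its level was 50.8, 50.8 and 50.7 TPM in the vehicle libraries and 115, 114 and 111 TPM in the PDBAG1 libraries. All 3 treated libraries lay above all 3 controls. CDKN1A rose 2.23-fold in mean TPM, from 50.8 ± 0.0625 to 113 ± 2.19 TPM (SD, n = 3 per group), or 1.14 as log2 fold change with a standard error of 0.04 (limma, adjusted p = 4.38e-10). It was the 48th largest rise of the 12582 genes tested, and the only one of the 9 genes to pass a 2-fold limit. In bulk RNA a change in the share of cells that express a gene cannot be told apart from a change per cell. When libraries were left out 1 at a time its log2 fold change stayed between 1.13 and 1.16.

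GDF15, a secreted stress cytokine of the TGF-β superfamily (chromosome 19, 18374731 to 18389176), was at 21.3, 23.5 and 21.2 TPM with vehicle and 36.9, 34.5 and 30.5 TPM with PDBAG1. The groups did not overlap, and the treated libraries were the more spread. GDF15 rose from 21.99 ± 1.34 to 34.0 ± 3.25 TPM (SD, n = 3 per group), or 0.60 as log2 fold change with a standard error of 0.07 (limma, adjusted p = 3.04e-05). This is just past 1.5-fold: the log2 fold change was 0.54 without PDBAG1 replicate 1, 0.58 without vehicle replicate 1 and 0.58 without vehicle replicate 3, where it no longer reached that limit but kept its adjusted p under 0.05. It was 0.56 when the libraries were rescaled by median of ratios or by quantiles, and GADD45B reached 1.5-fold in both of these settings and without vehicle replicate 3 (log2 fold change -0.59). The known receptor of GDF15 is GFRAL with its partner RET. GFRAL was at 0.207 ± 0.0850 and 0.253 ± 0.136 TPM, and RET at 0.0333 ± 0.0289 and 0.0100 ± 0.0173 TPM (vehicle and PDBAG1, SD, n = 3 each), so neither was tested.

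GADD45A and GADD45B encode small paralogous stress proteins that bind PCNA, p21 and stress kinases. GADD45B (chromosome 19, 2476122 to 2478259) was at 57.2, 61.3 and 56.6 TPM with vehicle and 38.2, 39.7 and 39.2 TPM with PDBAG1. Every treated library was below every control. GADD45B fell from 58.4 ± 2.54 to 39.0 ± 0.795 TPM (SD, n = 3 per group), or -0.57 as log2 fold change with a standard error of 0.05 (limma, adjusted p = 1.99e-06), the 70th largest fall among the genes tested and just short of 1.5-fold. GADD45A, a direct p53 target (chromosome 1, 67685201 to 67688334), was at 39.3, 41.5 and 38.7 TPM with vehicle and 33.3, 36.5 and 34.8 TPM with PDBAG1. Its groups also lay apart, by a narrower gap. GADD45A fell from 39.8 ± 1.45 to 34.9 ± 1.56 TPM (SD, n = 3 per group), or -0.19 as log2 fold change with a standard error of 0.06 (limma, adjusted p = 0.0181), and did not pass without vehicle replicate 2 (log2 fold change -0.16, adjusted p = 0.0872) or without PDBAG1 replicate 1 (log2 fold change -0.16, adjusted p = 0.0549). The controls held 1.47 ± 0.0110 times as much GADD45B as GADD45A in TPM, the treated libraries 1.12 ± 0.0279 times (SD, n = 3 per group). The third family member, GADD45G, was low, at 0.257 ± 0.254 and 0.473 ± 0.318 TPM, and GADD45GIP1, which encodes a GADD45-binding mitochondrial protein, did not pass (log2 fold change -0.04).

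**Figure D2:**
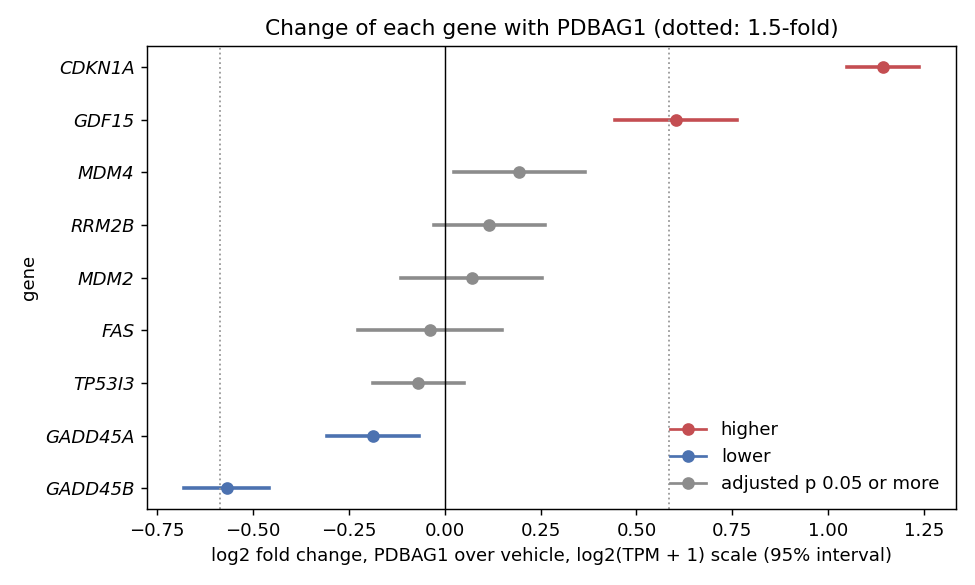
Log2 fold change of PDBAG1 over vehicle for the 9 genes on the log2(TPM + 1) scale, with limma's 95% interval for each. Red and blue mark genes that rose or fell at an adjusted p under 0.05, grey marks the 5 that did not pass, and the dotted lines stand at 1.5-fold, which CDKN1A and GDF15 exceed and GADD45B nearly reaches at -0.57.

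MDM2 and MDM4 are related proteins that bind p53 and block it, and MDM2 is also the ubiquitin ligase that marks p53 for degradation. MDM2 (chromosome 12, 68808177 to 68845544) was at 16.8, 13.7 and 14.7 TPM with vehicle and 14.7, 15.6 and 17.3 TPM with PDBAG1. The groups overlapped over most of their range. The means were 15.1 ± 1.61 and 15.8 ± 1.32 TPM (SD, n = 3 per group), and the log2 fold change of 0.07 had a 95% interval of -0.11 to 0.25 (limma adjusted p = 0.547). The upper bound of MDM2 thus lay well under 1.5-fold, whereas the lower bound of CDKN1A was 1.05 on the same scale.

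MDM4 (chromosome 1, 204516379 to 204558120), which lacks ligase activity of its own, was at 11.5, 9.86 and 10.5 TPM with vehicle and 11.6, 12.5 and 12.8 TPM with PDBAG1. The groups lay apart by a narrow gap, with the highest control at 11.51 TPM and the lowest treated library at 11.59 TPM. Its log2 fold change was 0.19 (95% interval 0.02 to 0.36, limma adjusted p = 0.0678), and it passed without vehicle replicate 1 (0.25, adjusted p = 0.0310) or without PDBAG1 replicate 1 (0.23, adjusted p = 0.0458). The ratio of MDM2 to MDM4 in TPM averaged 1.41 ± 0.0411 in the controls and 1.29 ± 0.0550 in the treated libraries (SD, n = 3 per group). It was between 1.39 and 1.46 in the controls and between 1.24 and 1.35 in the treated libraries.

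FAS encodes the death receptor for FAS ligand (chromosome 10, 88953813 to 89029605) and was the lowest of the 9 genes, at 7.87, 7.31 and 6.61 TPM with vehicle and 7.40, 6.89 and 6.81 TPM with PDBAG1. The treated values lay within the range of the controls. The log2 fold change was -0.04 (95% interval -0.23 to 0.15, limma adjusted p = 0.757). FASLG, the ligand, was at 0.0200 ± 0.0346 and 0.0400 ± 0.0346 TPM. Of the proteins that relay the FAS signal, the adaptor FADD fell slightly (110 ± 4.10 to 99.0 ± 8.03 TPM, log2 fold change -0.16, limma adjusted p = 0.0412) although its libraries overlapped, whereas CASP8 (log2 fold change 0.17, adjusted p = 0.0511) and the inhibitor CFLAR (0.06, adjusted p = 0.417) did not pass.

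RRM2B encodes the p53-inducible small subunit of ribonucleotide reductase, which supplies deoxynucleotides outside S phase (chromosome 8, 102204502 to 102238961, minus strand). Its level was 25.3, 22.9 and 23.7 TPM with vehicle and 24.1, 26.4 and 27.8 TPM with PDBAG1. The groups overlapped, with a log2 fold change of 0.12 (95% interval -0.03 to 0.26, limma adjusted p = 0.196). The list's other genes for ribonucleotide reductase, RRM1 and RRM2, both fell. RRM1 went from 187 ± 5.18 to 153 ± 8.33 TPM and RRM2 from 164 ± 1.13 to 135 ± 5.01 TPM (SD, n = 3 per group), with log2 fold changes of -0.29 (limma adjusted p = 0.000279) and -0.27 (adjusted p = 0.000175). The ratio of RRM2 to RRM2B in TPM averaged 6.84 ± 0.316 in the controls and 5.19 ± 0.214 in the treated libraries (SD, n = 3 per group), with no overlap between the groups.

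TP53I3 (PIG3) encodes a quinone oxidoreductase (chromosome 2, 24077433 to 24085861, minus strand). It was at 31.8, 30.2 and 29.9 TPM with vehicle and 29.2, 28.7 and 29.6 TPM with PDBAG1. All treated libraries were slightly lower, but the log2 fold change of -0.07 did not pass (95% interval -0.19 to 0.05, limma adjusted p = 0.358). CRYZ, a related quinone oxidoreductase, rose from 34.3 ± 0.298 to 40.4 ± 1.57 TPM (SD, n = 3 per group; change of 0.23 on the log2 scale, limma adjusted p = 0.00450). Over the 9 genes the 2 groups did not overlap in 6, against 47.4% of all genes tested (27.2% with PDBAG1 higher and 20.2% lower).

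In order of TPM the vehicle libraries ran GADD45B, CDKN1A, GADD45A, TP53I3, RRM2B, GDF15, MDM2, MDM4 and FAS, and of these neighbours only RRM2B and GDF15 overlapped. With PDBAG1 the order was CDKN1A, GADD45B, GADD45A, GDF15, TP53I3, RRM2B, MDM2, MDM4 and FAS, and only GADD45A and GDF15 overlapped. CDKN1A thus moved from below GADD45B to 2.90 ± 0.0974 times its level (0.870 ± 0.0366 times with vehicle, SD, n = 3 per group), and the last 3 places did not change.

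The neighbours of p21 were read from a list of cell cycle inhibitors and partners. CDKN1C (p57), a relative of p21, rose from 10.5 ± 1.03 to 17.6 ± 0.170 TPM (SD, n = 3 per group; change of 0.69 on the log2 scale, limma adjusted p = 1.35e-05). CDKN1B (p27), the other relative, was at 34.6 ± 1.49 and 33.9 ± 1.95 TPM (log2 fold change -0.03, adjusted p = 0.732). The ratio of CDKN1A to CDKN1B in TPM went from 1.47 ± 0.0622 to 3.35 ± 0.249 (SD, n = 3 per group). Of the INK4 inhibitors, CDKN2C fell (log2 fold change -0.25, limma adjusted p = 0.00864), CDKN2D did not pass (0.11, adjusted p = 0.0710) and CDKN2B was at 0.0100 ± 0.0173 TPM in both groups.

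Of the list's 4 genes for partners of p21, all 4 fell, where 15.9% of all genes tested fell; the 4 were chosen with earlier results known and had no test as a group. CCNE2, a cyclin that drives entry into S phase, fell most, from 33.6 ± 2.24 to 21.02 ± 1.11 TPM (SD, n = 3 per group; change of -0.65 on the log2 scale, limma adjusted p = 6.30e-06). PCNA, the replication clamp, fell from 372 ± 7.20 to 274 ± 4.18 TPM (log2 fold change -0.44, adjusted p = 6.91e-07). The log2 fold changes of CCNE1 and CDK2 were -0.30 (limma adjusted p = 0.00436) and -0.18 (adjusted p = 0.00902). In all 4 genes the treated libraries lay below the controls, as they did in 20.2% of all genes tested.

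Beyond the 9 genes, a list of 54 other known p53 targets was examined, of which 49 were expressed well enough to be tested. At a limma adjusted p under 0.05, 18 rose, 8 fell and 23 did not pass, or 53.1% called against 37.6% of all genes, and the median log2 fold change was 0.06 against 0.03. After median-of-ratios scaling 15 of the 49 rose and 9 fell, beside 2455 rises and 2741 falls over all genes. Quantile normalization gave 15 rises and 10 falls, beside 2404 and 2742 over all genes. The rises reached 1.5-fold in 3 genes and the falls in 1, where 2.86% of all genes tested rose and 0.477% fell that far. BTG2, TP53AIP1, EDA2R, GLS2 and SPATA18 were too low to be tested.

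**Figure D3:**
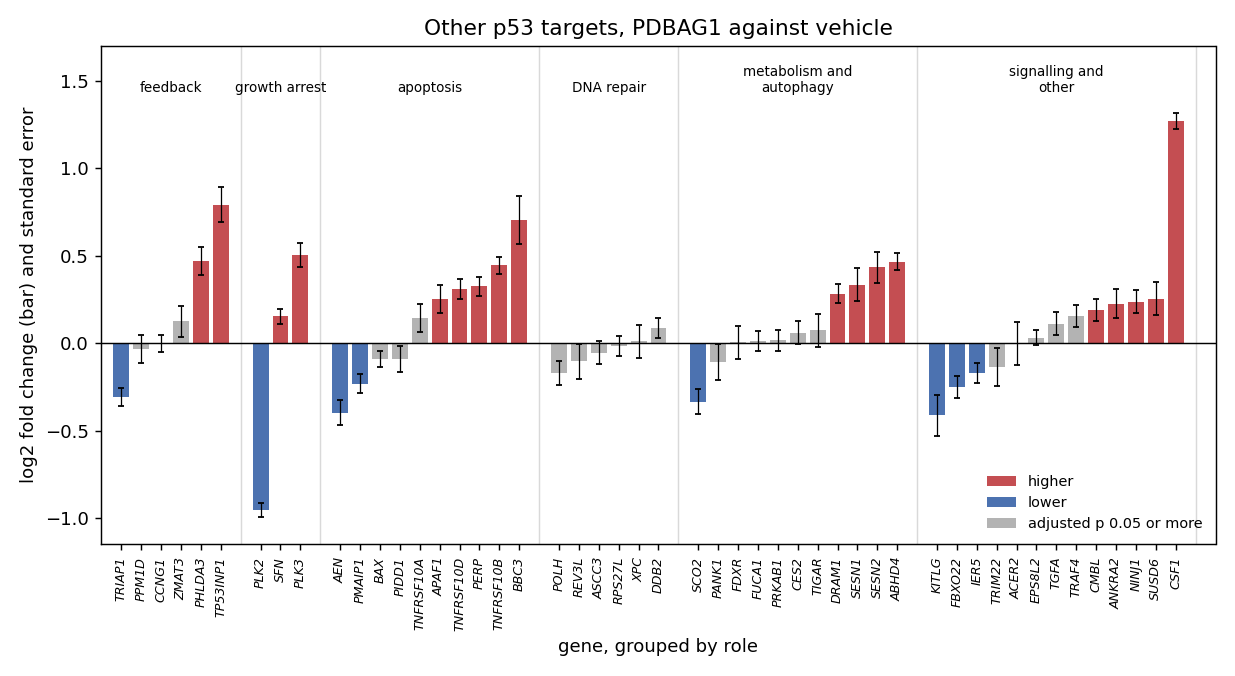
Log2 fold change of PDBAG1 over vehicle (bars, log2(TPM + 1) scale) with limma's standard error for the 49 other p53 targets tested, grouped by role and sorted within each role. Red and blue bars passed an adjusted p of 0.05 and grey bars did not; every role except DNA repair holds both rises and falls, from PLK2 at -0.95 to CSF1 at 1.27.

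The counts by role below stand against 21.7% of all genes tested that rose and 15.9% that fell. Of the 3 growth arrest genes tested, 2 rose and 1 fell. PLK2, a stress-responsive polo-like kinase, fell from 244 ± 2.57 to 126 ± 3.66 TPM (SD, n = 3 per group), or -0.95 as log2 fold change with a standard error of 0.04 (limma, adjusted p = 8.04e-10). PLK3, its relative, rose from 13.5 ± 0.830 to 19.5 ± 0.636 TPM (log2 fold change 0.50, adjusted p = 8.46e-05). Among feedback regulators TP53INP1, which promotes p53 phosphorylation and autophagy, rose from 2.64 ± 0.320 to 5.28 ± 0.337 TPM (log2 fold change 0.79, limma adjusted p = 4.39e-05), and PHLDA3, an inhibitor of AKT, from 7.56 ± 0.440 to 10.9 ± 0.427 TPM (log2 fold change 0.47). TRIAP1, picked after its value was seen, fell by 0.31 on the log2 scale.

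Of 10 apoptosis genes tested, 5 rose and 2 fell. BBC3, which encodes the BH3-only protein PUMA, rose from 7.64 ± 2.00 to 12.8 ± 0.946 TPM (SD, n = 3 per group; 0.70 ± 0.14 on the log2 scale with its standard error, limma adjusted p = 0.00127). Its vehicle libraries were at 5.35, 9.02 and 8.56 TPM, so the size of the rise leans on a low control. No fit without that library is given for BBC3. TNFRSF10B, the TRAIL receptor DR5, rose from 43.3 ± 1.13 to 59.4 ± 0.327 TPM (log2 fold change 0.45, adjusted p = 9.83e-06). The 2 that fell were AEN, an apoptosis-linked nuclease, and PMAIP1, which encodes NOXA, with log2 fold changes of -0.40 and -0.23, both named after their values were seen. BAX, the pore-forming protein, did not pass at 165 ± 8.92 and 155 ± 4.64 TPM (log2 fold change -0.09, limma adjusted p = 0.142), and was also picked afterwards.

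In the group of metabolism and autophagy genes 4 rose, 1 fell and 6 did not pass. ABHD4, a lipid hydrolase, rose from 49.7 ± 1.82 to 68.9 ± 0.482 TPM (SD, n = 3 per group; change of 0.47 on the log2 scale, limma adjusted p = 6.50e-06), and SESN2, a sestrin that restrains mTORC1 and also answers to ATF4, from 6.67 ± 0.451 to 9.36 ± 0.755 TPM (log2 fold change 0.43). In the last group 5 rose and 3 fell, and CSF1, the macrophage growth factor, had the largest rise of the list, from 187 ± 12.7 to 453 ± 5.95 TPM (log2 fold change 1.27, limma adjusted p = 3.85e-10). Of the 6 DNA repair genes XPC, DDB2, POLH, ASCC3, REV3L and RPS27L, 0 passed in limma. The unadjusted p was under 0.05 for 1 of them, and for 5814 of the 12582 genes tested. No other test was run on these 6, which were named after their values were seen. Their log2 fold changes lay between -0.17 and 0.09.

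The p53 consensus site was present with no mismatch near 2 genes of the list, PLK2 and ZMAT3, whose sites are shown as the closest to the consensus in the list.
PLK2: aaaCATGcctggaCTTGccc
ZMAT3: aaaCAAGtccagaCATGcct
The PLK2 site began 2207 bases before the start (chr5:58462274-58462293, minus strand) and the ZMAT3 site 1602 bases after it in intron 1 (chr3:179070188-179070207, minus strand). PLK2 fell, as above, and ZMAT3, an RNA-binding regulator, was at 7.03 ± 0.668 and 7.75 ± 0.551 TPM (SD, n = 3 per group; change of 0.12 on the log2 scale, limma adjusted p = 0.300). Of 38 list genes that could be scanned, 14 (36.8%) had a site with 2 or fewer mismatches, and 3 of the 14 rose and 3 fell. Over all scanned genes, the 1170 with such a site changed by a median of 0.03 on the log2 scale, with 38.2% called, and the 9126 without one also had a median of 0.03, with 37.7% called.

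Among 19 regulators of p53, 18 were tested, and 3 rose and 3 fell, or 33.3% called against 37.6% of all genes. PPP1R13L, which encodes the p53-binding inhibitor iASPP, rose from 27.2 ± 0.938 to 43.9 ± 2.15 TPM (SD, n = 3 per group; 0.67 ± 0.06 on the log2 scale with its standard error, limma adjusted p = 1.17e-06), the only regulator past 1.5-fold. TP53BP2 (ASPP2) and the acetyltransferase EP300 rose by smaller amounts, with log2 fold changes of 0.23 and 0.30 (limma adjusted p = 0.00901 and 0.00899). RCHY1, a further ubiquitin ligase for p53, fell by 0.30 on the log2 scale (adjusted p = 0.00511), the checkpoint kinase CHEK1 by 0.21 (adjusted p = 0.00741) and RPL11, a ribosomal protein that binds MDM2, by 0.11 (adjusted p = 0.0268).

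**Figure D4:**
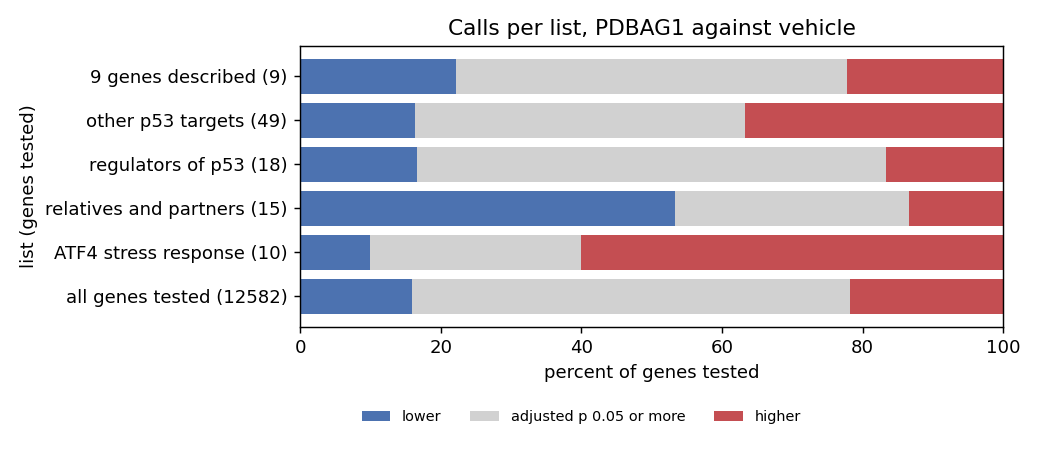
Share of tested genes in each list that fell (blue), did not pass (grey) or rose (red) at a limma adjusted p under 0.05, in percent of the genes tested, whose number stands in parentheses. The 9 genes hold 2 rises and 2 falls, the ATF4 list 6 rises among 10 genes and the relatives and partners 8 falls among 15, beside 21.7% rises and 15.9% falls over all 12582 genes tested.

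As GDF15 and GADD45A can also be switched on by ATF4, a list of 10 genes of that stress response was read alongside. Of these 6 rose, 1 fell and 3 did not pass, or 70% called, with a median log2 fold change of 0.22, where 37.6% of all genes were called (21.7% higher and 15.9% lower) with a median of 0.03. After median-of-ratios scaling 5 of the 10 rose and 2 fell. VLDLR, a lipoprotein receptor, rose most, from 3.81 ± 0.0866 to 9.36 ± 0.0473 TPM (SD, n = 3 per group; change of 1.11 on the log2 scale, limma adjusted p = 2.50e-07), and ATF3, a stress transcription factor, from 4.27 ± 0.889 to 7.57 ± 0.716 TPM (log2 fold change 0.71, adjusted p = 0.000333). CHAC1, TRIB3 and PPP1R15A (GADD34) rose with log2 fold changes of 0.42, 0.42 and 0.31, and ATF4 itself with 0.13. PSAT1 fell (log2 fold change -0.20) although its libraries overlapped. DDIT3 (CHOP) was at 69.6 ± 2.96 and 67.8 ± 0.652 TPM (log2 fold change -0.04, limma adjusted p = 0.561). ASNS and PHGDH did not pass either, with log2 fold changes of -0.11 and 0.07. DDIT3, ASNS and PHGDH were picked after their values were seen. The part of this response in the rise of GDF15 was not tested.

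As a description of pattern, the tested genes whose log2(TPM + 1) values followed each of the 4 changed genes most closely over the 6 libraries were TMBIM1 and IL1B for CDKN1A (Pearson r = 0.9999 and 0.9994), MTMR14 and CPNE5 for GDF15 (0.998 and 0.997), GCSH and MCCC1 for GADD45B (0.999 and 0.998) and NAP1L4 and DYRK4 for GADD45A (0.995 and 0.995). They were YWHAG and NR2C2 for MDM2, ZFC3H1 and ZNF83 for MDM4, HSPG2 and SLC35B3 for FAS, TRPM7 and ZNF33A for RRM2B, and TGFBRAP1 and CISD2 for TP53I3. The 6 points fall into only 2 treatments, and 12582 genes were searched.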

How the data were processed

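RNA from 6 libraries of MDA-MB-231 cells (3 vehicle, 3 PDBAG1) was analysed from the values the authors deposited, which are TPM rounded to 2 decimals and scaled by them to the same sum in each library. Per the paper, mRNA libraries were sequenced on the BGISEQ-500 platform and mapped with HISAT2 to GRCh38.p13. The submitters' processing notes list HISAT2 2.0.4, Bowtie2 2.2.5 and RSEM 1.2.12 and the build GRCh38.p12. The annotation release is not given in the sources used here. TPM keeps no depth, so count tests were not run. Whether reads were counted by strand is not given in the sources used here, so reads from antisense transcripts cannot be told apart.

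Groups and replicate numbers came from the sample titles. A TPM of 1 or above in no fewer than 3 libraries was required, and genes were compared on log2(TPM + 1) in R 4.3.3 with limma 3.58.1 (lmFit, eBayes with trend, two-sided). With 3 against 3, an exact permutation test cannot give a p under 0.1. On simulated libraries of 12582 genes for PDBAG1 against vehicle, 200 of 200 genes given a log2 change of 1 were recovered and 11 unchanged genes were called. The 200 were drawn from the more highly expressed genes, so recovery at lower levels or of smaller changes was not measured. Named genes were the 9 genes of the set, list genes past 1.5-fold, up to 5 further genes per list with the largest change among those that passed, all relatives and partners, and the 2 genes most like each of the 9; others are said to be picked afterwards. The 9 genes and the lists were chosen with earlier results of these data known, so no list was given a test of its own. Gene positions are from GENCODE v44 and starts from RefSeq (GRCh38.p14); all 10296 RefSeq start sequences used equalled the genome sequence. The gene encoding p53 is not reported here. Alternatives were other filters, a pseudocount of 0.1, median-of-ratios scaling, quantile normalization, a replicate block, each library left out and a fold limit of 2.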

Additional observations from a re-analysis of the deposited data

How the results depend on the processing

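The 2 members of the set past 1.5-fold became 1, CDKN1A, at a fold limit of 2, where the 420 genes called over all genes became 80; when 1 library at a time was left out the set's count was 1 to 2. Under median-of-ratios scaling, under quantile normalization and without vehicle replicate 3 the count of 2 comprised CDKN1A and GADD45B rather than GDF15, whose log2 fold change was then 0.56, 0.56 and 0.58. Without the fold limit the set's count was 3 to 5 with a library left out and 4 in all other settings. CDKN1A, GDF15 and GADD45B kept direction and an adjusted p under 0.05 in all 12 alternatives. MDM2 was at -0.0054 under quantile normalization, and FAS ranged from -0.0966 to 0.0139 with a library left out, above 0 without vehicle replicate 1; neither passed in any setting, and the cause was not tested. The counts for the other lists stayed within 1.5 times their values. The numbers of the libraries share no stated origin, and the deviations of libraries with the same number correlated at -0.207, 0.0118 and -0.0785, so they were not treated as pairs. With the replicate block 4 of the set passed, as without it. The median over all genes tested went from 0.03 to -0.0074 under median of ratios and -0.0199 under quantiles, and the majority of calls turned from higher (2736 against 2000) to lower (2455 against 2741, and 2404 against 2742). Unknown depth limits what can be said of genes under a TPM of 1.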
